A study of Saccharomyces cerevisiae with 10 samples.

Results

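DNA replication machinery here means 53 yeast genes that copy chromosomal DNA: the 3 replicative DNA polymerases, the sliding clamp and its loaders, the single-strand binding protein, the replicative helicase with its loaders and activators, the enzymes that finish the lagging strand, and the proteins that hold the fork together. The members were taken by name from a list of these genes, and their probe sets were found through the platform annotation and gene identifiers. Each of the 53 had exactly 1 probe set, out of 5449 genes of Saccharomyces cerevisiae measured, and all 53 lay above the background limit on all 10 arrays. They were set out in 11 groups by complex or role, and no member overlaps another gene in the R64 gene table.

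The study asked how the transcriptome of budding yeast lacking SUA5 compares early and late after the gene was lost. Sua5 takes part in making the threonylcarbamoyl modification of transfer RNAs that read codons starting with A. All 3 strain groups were grown in 5 ml of liquid YPD, a rich glucose medium, to mid-log phase, and total RNA of each culture was hybridised to 1 Affymetrix array. The sua5D 12th group (n = 3) holds MAT a haploid deletion strains at about 300 generations after sporulation, restreaked 12 times on plates. The sua5D 1st group (n = 4) holds MAT a deletion strains at about 35 generations, after 1 restreaking. Both come from dissected spores of a diploid of the BY4743 background with 1 deleted and 1 intact SUA5 copy. The wild type (n = 3) is BY4742, a haploid of mating type alpha with SUA5 intact. Loss of SUA5, mating type, passage through sporulation and marker gene differences therefore cannot be told apart in any comparison with wild type. HIS3 differed from wild type on all deletion arrays, and each of these arrays also differed in MET17 or LYS2. MET17 differed on the 12th-restreaking arrays and on first-restreaking replicates 1 and 2, and LYS2 on first-restreaking replicates 3 and 4. The values are given below. Both comparisons share the same 3 wild-type arrays.

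Eukaryotic replication starts when the origin recognition complex, with Cdc6 and Cdt1, loads the Mcm2-7 ring onto origin DNA in G1. The Dbf4-dependent kinase Cdc7 and the S-phase cyclin kinase, acting through Sld3, Sld2 and Dpb11, then recruit Cdc45 and the GINS complex to turn that ring into an active helicase. Polymerase alpha with primase lays down primers, polymerase epsilon extends the leading strand and polymerase delta the lagging strand, both tied to DNA by the PCNA clamp. In budding yeast many of these genes are transcribed periodically: polymerase, RPA and clamp genes peak late in G1 under the MBF and SBF factors, and CDC6 and several MCM genes peak around the end of mitosis. In an asynchronous culture, fewer cells in a cycle phase and less RNA per cell cannot be told apart.

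The values are linear intensities that the authors had scaled to a common mean per array, and differences are given as log2 changes of intensity + 16 with their standard error, from limma fitted to all genes, called at an adjusted p under 0.05. On this scale a fold change comes out too small where a probe set is dim, and intensities of different probe sets are not compared with each other. The number of arrays limits the precision. The median over tested genes ran between 602 and 613.3 intensity units on the wild-type arrays and between 649.5 and 666 on the deletion arrays. Over all probe sets, the median was at most 63.96 on the wild-type arrays and at least 89.7 on the deletion arrays. The arrays of wild type and of the deletion strains thus did not overlap in either median, and calls under other scalings are given below. Between 97.7% and 99.1% of genes were above background. SUA5 read 5.22, 4.93 and 2.18 in the 12th-restreaking cultures, 0.342, 5.10, 3.17 and 1.20 in the first-restreaking cultures and 506, 522 and 532 in wild type, and the deletion values lay under the background limits of 10.8 to 17.5. The mating type a markers (7 genes, such as STE2) summed to 6206 to 6553 at the 12th restreaking and 5664 to 7166 at the first, against 288 to 352 in wild type. The alpha markers (4 genes, such as STE3) summed to 964 to 1057 at the 12th restreaking and 1062 to 1296 at the first, against 18149 to 19019 in wild type. First-restreaking replicates 1 and 2 resembled each other (r = 0.399 between their deviations from the group mean, over genes), as did replicates 3 and 4 (r = 0.487). Arrays of different pairs gave r of -0.759 to -0.693. Deviations from a shared mean cancel out for each gene, so negative r between the pairs is partly built in. The marker genes LYS2 and MET17 differed with the pairs. LYS2 read 53.7, 29.3 and 10.8 in the 12th-restreaking cultures, 15.6, 9.34, 2953 and 2890 in the first-restreaking cultures and 11.1, 17.4 and 10.9 in wild type. MET17 read 96.9, 30.6 and 8.09 in the 12th-restreaking cultures, 10.004, 15.3, 4898 and 4662 in the first-restreaking cultures and 4192, 4176 and 4382 in wild type. HIS3, another marker gene, read 3769, 3672.5 and 3681 at the 12th restreaking and 3414, 3762, 3775 and 3691 at the first. In wild type HIS3 read 1386, 1483 and 1443. The labels call the clones independent, and calls that are gained or lost with 1 pair alone are given beside the genes.

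Most of the replication machinery had less mRNA in the deletion strains. At the 12th restreaking 37 of 53 members were lower than in wild type and 9 were higher, where 36.9% of all genes were lower and 40.9% higher. At the first restreaking 37 members were lower and 8 higher, beside 37.5% and 41.5% of all genes. The members' median log2 change was -0.51 at the 12th restreaking and -0.47 at the first, against a median of 0.03 over all genes in each comparison. The changes ran between -1.74 and 0.96 at the 12th restreaking and between -1.49 and 1.05 at the first. With a further requirement of at least 1.5-fold, a rule added after the data were seen, 23 members were lower and 3 higher at the 12th restreaking, beside 10.8% and 19.9% of all genes. By the same rule 21 were lower and 2 higher at the first restreaking, beside 11.0% and 20.7% of all genes. The falls were largest in polymerase alpha, replication protein A, PCNA with the large subunit of its loader, the lagging-strand ligase and CDC6, and the rises were largest in 2 subunits of GINS.

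**Figure D1:**
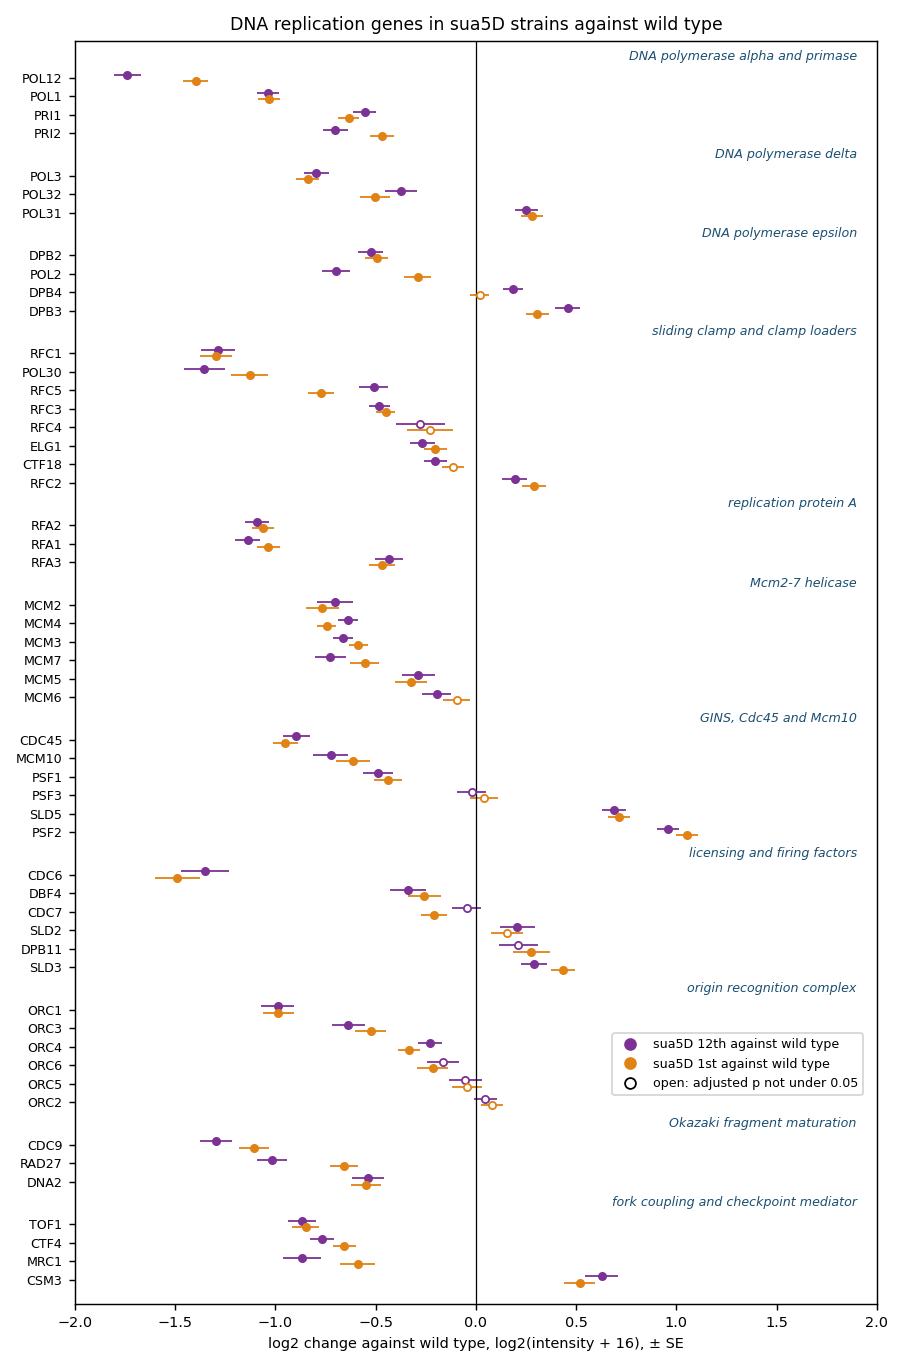
Log2 change against wild type of the 53 replication genes (x axis; intensity + 16; error bars, SE), by complex. Purple points are the 12th restreaking, orange points the first; open points had an adjusted p of 0.05 or more. Most points lie left of 0, the lowest being POL12 at -1.74 and the highest PSF2 at 1.05.

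All 4 genes of the DNA polymerase alpha-primase complex, which primes both strands, were lower in both comparisons, with a median log2 change of -0.87 at the 12th restreaking and -0.83 at the first. POL12, the B subunit that helps tether the polymerase, had the largest fall of all members at the 12th restreaking. Its intensity was 259.7, 291 and 254 in the 12th-restreaking cultures, 341, 332, 356 and 344 in the first-restreaking cultures and 890.2, 909 and 998 in wild type. The deletion arrays lay well under every wild-type array, and the 12th-restreaking arrays were the lowest. The change was -1.74 ± 0.07 at the 12th restreaking (adjusted p = 3.24e-11) and -1.40 ± 0.06 at the first (adjusted p = 1.16e-10), a fall of 3.34-fold and 2.64-fold. POL1, the catalytic subunit, read 815, 759.8 and 772 at the 12th restreaking and 757, 797, 795 and 789 at the first, against 1703, 1681 and 1489 in wild type. Both deletion groups sat at a like level, and POL1 changed by -1.04 ± 0.06 at the 12th restreaking (adjusted p = 1.17e-09) and -1.03 ± 0.05 at the first (adjusted p = 5.16e-10). PRI2, the large primase subunit, read 436, 408 and 402 on the 12th-restreaking arrays, 474, 475, 527 and 487 on the first-restreaking arrays and 645, 709.6 and 701 on the wild-type arrays, with no overlap between any of the groups. It fell by 0.70 on the log2 scale at the 12th restreaking and by 0.47 at the first. PRI1, the catalytic primase subunit, was lower, with changes of -0.55 at the 12th restreaking and -0.64 at the first (log2), and all its deletion values, up to 318, were under the lowest wild-type value of 453.

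The polymerase delta genes did not move together. POL3, the catalytic subunit, read 537, 551 and 529.97 in the 12th-restreaking cultures, 531, 549, 509.8 and 504 in the first-restreaking cultures and 1041, 919 and 894 in wild type. No deletion array reached the wild-type range, and the change was -0.80 ± 0.06 at the 12th restreaking (adjusted p = 4.29e-08) and -0.84 ± 0.06 at the first (adjusted p = 1.03e-08). POL32, the subunit that binds PCNA, read 208, 183 and 204 at the 12th restreaking and 168, 174, 181 and 196 at the first, against 252, 251 and 283 in wild type, and changed by -0.37 ± 0.08 at the 12th restreaking (adjusted p = 0.000715) and -0.51 ± 0.08 at the first (adjusted p = 2.61e-05). POL31, which joins the other two subunits, was higher instead, at 508, 476 and 479 on the 12th-restreaking arrays, 495, 504, 475 and 521 on the first-restreaking arrays and 404, 392 and 427 on the wild-type arrays. Its change of 0.25 ± 0.06 at the 12th restreaking (adjusted p = 0.00128) and 0.28 ± 0.05 at the first (adjusted p = 0.00028) was small and did not hold under quantile normalization, where the adjusted p was 0.38 at the 12th restreaking and 0.163 at the first.

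The polymerase epsilon genes also differed in direction: POL2 and DPB2 were lower, while DPB3 and DPB4, which encode the histone-fold subunits, were not. POL2, the catalytic subunit, read 1012, 924 and 919 in the 12th-restreaking cultures, 1204, 1304, 1378 and 1190.4 in the first-restreaking cultures and 1494, 1717 and 1461 in wild type. The 3 groups did not overlap, with the 12th restreaking lowest. POL2 changed by -0.70 ± 0.07 at the 12th restreaking (adjusted p = 6.97e-07) and -0.29 ± 0.07 at the first (adjusted p = 0.00117). DPB2, the essential accessory subunit, read 313, 282 and 301 at the 12th restreaking and 302, 299, 298 and 321 at the first, against 419.6, 447 and 443 in wild type, and changed by -0.53 ± 0.06 at the 12th restreaking (adjusted p = 2.74e-06) and -0.50 ± 0.06 at the first (adjusted p = 2.24e-06). DPB3 was higher, at 518, 504 and 551 on the 12th-restreaking arrays, 461, 442, 502 and 479 on the first-restreaking arrays and 366, 376 and 391 on the wild-type arrays, a change of 0.46 ± 0.06 at the 12th restreaking (adjusted p = 1.11e-05) and 0.31 ± 0.06 at the first (adjusted p = 0.000227). DPB4 read 988, 954 and 936 in the 12th-restreaking cultures, 878, 818, 854 and 864 in the first-restreaking cultures and 816, 829 and 881 in wild type; it was higher at the 12th restreaking (0.18 ± 0.05, adjusted p = 0.00384), while the first-restreaking arrays overlapped wild type (0.02 ± 0.05, adjusted p = 0.712). With array medians set equal the DPB4 change was 0.07 (adjusted p = 0.185) at the 12th restreaking, and under quantile normalization DPB3 at the first restreaking was 0.09 (adjusted p = 0.185).

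**Figure D2:**
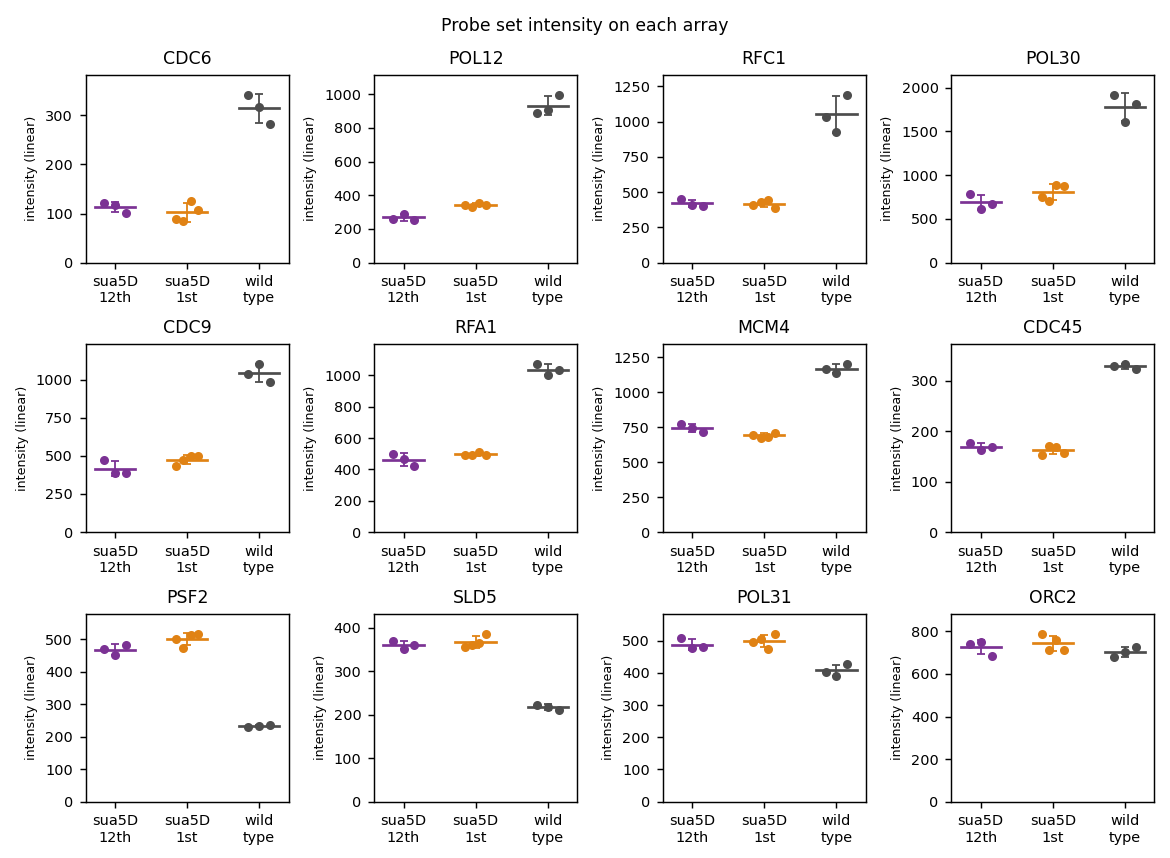
Intensity (linear) of 12 replication genes on each array. Points are arrays, grouped as sua5D 12th (n = 3), sua5D 1st (n = 4) and wild type (n = 3); horizontal lines are means and error bars SD. In the first 8 panels all deletion points lie under all wild-type points, in PSF2, SLD5 and POL31 they lie above them, and in ORC2 the groups overlap.

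Of the 8 clamp and clamp-loader genes, 6 were lower at the 12th restreaking and 5 at the first, and 1 was higher in each. POL30 encodes PCNA, the ring that holds polymerases on DNA. It read 782, 610.3 and 668 in the 12th-restreaking cultures, 754, 705, 889 and 871 in the first-restreaking cultures and 1919, 1604 and 1807 in wild type. The highest deletion array stood at less than the lowest wild-type array by a wide margin, and POL30 fell 2.56-fold at the 12th restreaking (adjusted p = 2.81e-08) and 2.19-fold at the first (adjusted p = 7.81e-08). RFC1, the large subunit of the replication factor C clamp loader, read 449.9, 408 and 402 at the 12th restreaking and 408, 428, 444 and 387 at the first, against 1034, 927 and 1191 in wild type. It fell 2.44-fold and 2.46-fold in the same order, with adjusted p-values of 7.06e-09 at the 12th restreaking and 2.68e-09 at the first.

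The small subunits of replication factor C, which the loader variants share, went different ways. RFC5 read 710.2, 683 and 635 on the 12th-restreaking arrays, 620.1, 509.6, 583 and 536 on the first-restreaking arrays and 1003, 930.04 and 975 on the wild-type arrays, and the groups did not overlap. Here the first restreaking was the lower of the deletion groups, with changes of -0.51 ± 0.07 at the 12th restreaking (adjusted p = 1.57e-05) and -0.77 ± 0.07 at the first (adjusted p = 1.07e-07). RFC3 was lower too, with changes of -0.48 at the 12th restreaking and -0.45 at the first (log2), with adjusted p-values of 1.08e-06 at the 12th restreaking and 9.7e-07 at the first. RFC2 was higher, reading 956 to 1101 at the 12th restreaking and 1030 to 1152 at the first, against 853 to 927 in wild type. Its change was 0.19 ± 0.06 at the 12th restreaking (adjusted p = 0.0113) and 0.29 ± 0.06 at the first (adjusted p = 0.000393), and at the 12th restreaking it had an adjusted p of 0.237 with array medians set equal and 0.0687 without 12th-restreaking replicate 2. RFC4 read 280.2, 397 and 342 in the 12th-restreaking cultures, 428, 322, 323 and 330.1 in the first-restreaking cultures and 412, 379 and 446 in wild type, and the groups overlapped. Its change of -0.28 ± 0.12 at the 12th restreaking (adjusted p = 0.0529) and -0.23 ± 0.11 at the first (adjusted p = 0.0798) missed the threshold in both. Replicate 1 of the first restreaking stood apart at 428, and without it the first-restreaking change was -0.33 (adjusted p = 0.0103). Both alternative scalings also brought RFC4 past the threshold. At the 12th restreaking it passed without first-restreaking replicate 1 (adjusted p = 0.0239), 12th-restreaking replicate 2 (0.0121) or wild-type replicate 2 (0.0432), and at the first without 12th-restreaking replicate 1 (0.048). The 12th-restreaking change also passed with first-restreaking replicates 1 and 2 alone (0.0453) or 3 and 4 alone (0.0244). With replicates 3 and 4 alone the first-restreaking change was -0.32 (adjusted p = 0.022).

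The alternative loader subunits moved little. ELG1, which unloads PCNA, was lower, with changes of -0.27 at the 12th restreaking and -0.20 at the first (log2; adjusted p-values 0.00124 at the 12th restreaking and 0.00527 at the first). With first-restreaking replicates 3 and 4 alone, ELG1 was -0.14 (adjusted p = 0.0662). CTF18, of the loader linked to sister chromatid cohesion, changed by -0.20 ± 0.06 at the 12th restreaking (adjusted p = 0.00561) and -0.11 ± 0.05 at the first (adjusted p = 0.0719), so that only the 12th restreaking passed. At the first restreaking CTF18 was -0.14 (adjusted p = 0.0418) without replicate 1, -0.23 (adjusted p = 0.00126) with array medians set equal and -0.25 (adjusted p = 0.000866) under quantile normalization.

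All 3 subunits of replication protein A, which coats single-stranded DNA, were lower in both comparisons, with a median log2 change of -1.09 at the 12th restreaking and -1.04 at the first. RFA1, the large subunit, read 501, 465 and 423 in the 12th-restreaking cultures, 492, 493, 510.4 and 492 in the first-restreaking cultures and 1071, 1002 and 1036 in wild type. RFA2, the middle subunit, read 903, 777 and 828 at the 12th restreaking and 914, 849, 821 and 826 at the first, against 1746, 1858 and 1789 in wild type. For both genes the deletion arrays formed a narrow band far under wild type. RFA1 fell 2.20-fold at the 12th restreaking and 2.05-fold at the first (adjusted p-values 9.76e-10 at the 12th restreaking and 1.03e-09 at the first). RFA2 fell 2.13-fold and 2.09-fold in that order (adjusted p-values 1.36e-09 at the 12th restreaking and 7.36e-10 at the first). RFA3, the small subunit, read 679, 575 and 647 on the 12th-restreaking arrays, 618, 578, 649 and 630.4 on the first-restreaking arrays and 801, 883 and 902 on the wild-type arrays. Its fall was smaller, with changes of -0.44 ± 0.07 at the 12th restreaking (adjusted p = 5.59e-05) and -0.47 ± 0.07 at the first (adjusted p = 1.42e-05).

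The 6 genes of the Mcm2-7 ring, the motor of the replicative helicase, were all lower at the 12th restreaking, and 5 were lower at the first. MCM2 read 476, 386 and 434 in the 12th-restreaking cultures, 439.9, 356, 437 and 419 in the first-restreaking cultures and 758, 662 and 716 in wild type, a change of -0.70 ± 0.09 at the 12th restreaking (adjusted p = 6.63e-06) and -0.77 ± 0.08 at the first (adjusted p = 1.29e-06). MCM4 read 777, 747 and 716 at the 12th restreaking and 698, 675, 683 and 709 at the first, against 1168, 1141 and 1201 in wild type, a change of -0.64 ± 0.05 at the 12th restreaking (adjusted p = 3.57e-08) and -0.75 ± 0.05 at the first (adjusted p = 2.95e-09). MCM7 read 629, 561 and 549 on the 12th-restreaking arrays, 604, 633, 689 and 693 on the first-restreaking arrays and 1072, 884 and 957 on the wild-type arrays, a change of -0.73 ± 0.08 at the 12th restreaking (adjusted p = 1.22e-06) and -0.56 ± 0.07 at the first (adjusted p = 8.44e-06). In each of these 3 genes every deletion array lay under every wild-type array. MCM3 changed by -0.66 at the 12th restreaking and -0.59 at the first and MCM5 by -0.29 at the 12th restreaking and -0.32 at the first (log2), both past the threshold. MCM6 was the least altered of the ring. It read 582, 551 and 582 in the 12th-restreaking cultures, 697, 632, 572 and 559 in the first-restreaking cultures and 658, 654 and 657 in wild type, with only the 12th-restreaking arrays all under wild type. Its change was -0.20 ± 0.07 at the 12th restreaking (adjusted p = 0.0244) and -0.10 ± 0.07 at the first (adjusted p = 0.203). First-restreaking replicates 1 and 2 stood at 697 and 632 and replicates 3 and 4 at 572 and 559, and the change was -0.21 (adjusted p = 0.00441) with replicates 3 and 4 alone and -0.16 (adjusted p = 0.0215) without replicate 1. It also passed with array medians set equal, at -0.21 (adjusted p = 0.00983), and under quantile normalization, at -0.19 (adjusted p = 0.0228). At the 12th restreaking MCM6 lost its call when 12th-restreaking replicate 2 (adjusted p = 0.0843), wild-type replicate 1 (0.0541) or wild-type replicate 3 (0.0524) was left out.

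The factors that complete the helicase were split. CDC45, which joins Mcm2-7 and GINS at origins as they fire, read 176, 163 and 169 at the 12th restreaking and 153, 170.1, 169 and 157 at the first, against 329.6, 333 and 323 in wild type. It changed by -0.90 ± 0.07 at the 12th restreaking (adjusted p = 2.95e-08) and -0.95 ± 0.06 at the first (adjusted p = 6.63e-09). MCM10, an activator of the assembled helicase and a dim probe set, read 80.0, 86.0 and 81.6 on the 12th-restreaking arrays, 91.4, 95.5, 85.6 and 89.5 on the first-restreaking arrays and 129.7, 159.7 and 153 on the wild-type arrays, and changed by -0.72 ± 0.09 at the 12th restreaking (adjusted p = 4.16e-06) and -0.61 ± 0.08 at the first (adjusted p = 1.02e-05). Both genes were lower on every deletion array than on any wild-type array.

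Among the 4 GINS subunits, 2 were higher, 1 was lower and 1 did not pass. PSF2 had the largest rise of all members, reading 470.3, 449.98 and 482 in the 12th-restreaking cultures, 500.04, 473, 512 and 516 in the first-restreaking cultures and 230.4, 232 and 236 in wild type. The groups were far apart, with changes of 0.96 ± 0.06 at the 12th restreaking (adjusted p = 2.66e-09) and 1.05 ± 0.05 at the first (adjusted p = 4.43e-10). SLD5 read 369, 351 and 359.7 at the 12th restreaking and 355, 360.1, 365 and 386 at the first, against 223, 219 and 210.2 in wild type, with changes of 0.69 ± 0.06 at the 12th restreaking (adjusted p = 1.11e-07) and 0.71 ± 0.06 at the first (adjusted p = 3.33e-08). These rises kept their calls with array medians set equal and under quantile normalization, which gave PSF2 0.67 at the 12th restreaking and 0.77 at the first, and SLD5 0.37 and 0.40. PSF1 was lower, with changes of -0.49 at the 12th restreaking and -0.44 at the first (log2; adjusted p-values 4.02e-05 at the 12th restreaking and 5.4e-05 at the first). PSF3 read 427, 389.5 and 377 on the 12th-restreaking arrays, 379, 396, 447 and 444 on the first-restreaking arrays and 399, 393 and 419.9 on the wild-type arrays, with overlapping groups and changes of -0.02 ± 0.07 at the 12th restreaking (adjusted p = 0.797) and 0.04 ± 0.07 at the first (adjusted p = 0.597). Under quantile normalization PSF3 was lower, at -0.24 (adjusted p = 0.0106) at the 12th restreaking and -0.17 (adjusted p = 0.0384) at the first. The 4 proteins form 1 complex in equal numbers, and their mRNAs did not change in 1 direction.

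Among the licensing and firing factors, CDC6 stood apart from the other 5. Cdc6 loads Mcm2-7 together with the origin recognition complex, and its mRNA had the largest fall of all members at the first restreaking. CDC6 read 121, 118 and 101 in the 12th-restreaking cultures, 89.3, 85.8, 126 and 108 in the first-restreaking cultures and 342, 317 and 283 in wild type. The highest deletion value, 126, compares with a lowest wild-type value of 283. The changes were -1.35 ± 0.12 at the 12th restreaking (adjusted p = 1.95e-07) and -1.49 ± 0.11 at the first (adjusted p = 3.04e-08), a fall of 2.55-fold and 2.81-fold.

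SLD3, which recruits Cdc45, was higher, at 347, 326 and 352 at the 12th restreaking and 381, 365, 387 and 380.4 at the first, against 277, 256 and 297 in wild type, a change of 0.29 ± 0.07 at the 12th restreaking (adjusted p = 0.00101) and 0.43 ± 0.06 at the first (adjusted p = 1.55e-05). DBF4, the regulatory subunit of the Cdc7 kinase, read 183, 189 and 181 on the 12th-restreaking arrays, 203, 209.7, 196 and 177 on the first-restreaking arrays and 218, 275 and 222 on the wild-type arrays. It changed by -0.34 ± 0.09 at the 12th restreaking (adjusted p = 0.00346) and -0.26 ± 0.08 at the first (adjusted p = 0.0121), but at the first restreaking the call was lost without wild-type replicate 2, where the change was -0.16 (adjusted p = 0.0787), and with first-restreaking replicates 1 and 2 alone (adjusted p = 0.092). CDC7, the kinase itself, read 327, 346 and 320.1 in the 12th-restreaking cultures, 307, 299, 283 and 287 in the first-restreaking cultures and 326, 323 and 380.4 in wild type. Its changes were -0.05 ± 0.07 at the 12th restreaking (adjusted p = 0.563) and -0.21 ± 0.07 at the first (adjusted p = 0.0105), and the first-restreaking adjusted p was 0.0701 without wild-type replicate 3 and 0.0791 with first-restreaking replicates 1 and 2 alone. At the 12th restreaking CDC7 was lower under both other scalings, at -0.16 (adjusted p = 0.0427) with array medians set equal and -0.30 (adjusted p = 0.000904) under quantile normalization. The restreakings differed by 0.16 ± 0.07, which did not pass (adjusted p = 0.118). DPB11, which bridges Sld2 and Sld3, changed by 0.21 ± 0.10 at the 12th restreaking (adjusted p = 0.0622) and 0.28 ± 0.09 at the first (adjusted p = 0.0135). At the 12th restreaking it passed without first-restreaking replicate 1 (adjusted p = 0.0461) or 12th-restreaking replicate 1 (0.0107). It also passed there with first-restreaking replicates 1 and 2 alone (0.0239) or 3 and 4 alone (0.0238). With first-restreaking replicates 3 and 4 alone its first-restreaking change was 0.13 (adjusted p = 0.178). It was 0.16 (adjusted p = 0.113) with array medians set equal and 0.05 (adjusted p = 0.663) under quantile normalization. SLD2 read 144 to 174 at the 12th restreaking and 143 to 158 at the first, against 129 to 149 in wild type, and changed by 0.21 ± 0.09 at the 12th restreaking (adjusted p = 0.0403) and 0.15 ± 0.08 at the first (adjusted p = 0.0943). With array medians set equal SLD2 was 0.09 (adjusted p = 0.333) at the 12th restreaking, and under quantile normalization -0.21 (adjusted p = 0.0218), in the other direction. Its 12th-restreaking call was lost without 12th-restreaking replicate 1 or 2 (adjusted p = 0.0845 and 0.172) or wild-type replicate 2 or 3 (0.112 and 0.115), and at the first restreaking it passed without wild-type replicate 1 (0.0364). With first-restreaking replicates 1 and 2 alone the 12th-restreaking call of SLD2 was lost too (adjusted p = 0.0514). SLD3 at the 12th restreaking was also lost under quantile normalization, at -0.0014 (adjusted p = 0.985).

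In the origin recognition complex, the platform for Mcm2-7 loading, ORC1 had the clearest change. It encodes the largest subunit, an ATPase, and read 455, 495 and 443 in the 12th-restreaking cultures, 540.1, 453, 463 and 412 in the first-restreaking cultures and 938, 986 and 889 in wild type. No deletion array came near wild type, and the changes were -0.99 ± 0.08 at the 12th restreaking (adjusted p = 9.55e-08) and -0.99 ± 0.08 at the first (adjusted p = 4.18e-08). ORC3 read 276, 233 and 269 at the 12th restreaking and 256, 302, 264 and 304 at the first, against 417, 402 and 414 in wild type, a change of -0.64 ± 0.08 at the 12th restreaking (adjusted p = 7.29e-06) and -0.52 ± 0.08 at the first (adjusted p = 2.27e-05). ORC4 read 443, 451 and 414 on the 12th-restreaking arrays, 428, 414, 391 and 386 on the first-restreaking arrays and 505, 506 and 531 on the wild-type arrays, a change of -0.23 ± 0.06 at the 12th restreaking (adjusted p = 0.0031) and -0.33 ± 0.06 at the first (adjusted p = 8.53e-05). ORC6 changed by -0.17 ± 0.08 at the 12th restreaking (adjusted p = 0.0773) and -0.22 ± 0.08 at the first (adjusted p = 0.0177), and the first-restreaking call was lost without first-restreaking replicate 4 (adjusted p = 0.0558) or wild-type replicate 3 (0.0589), or with first-restreaking replicates 1 and 2 alone (0.153), while the 12th-restreaking change passed without 12th-restreaking replicate 2 (0.0267). Both other scalings called ORC6 lower at the 12th restreaking, at -0.28 (adjusted p = 0.00575) with array medians set equal and -0.46 (adjusted p = 0.000134) under quantile normalization. ORC2 read 687 to 751 at the 12th restreaking and 712 to 789 at the first, against 678 to 728 in wild type, with changes of 0.05 ± 0.06 at the 12th restreaking (adjusted p = 0.468) and 0.08 ± 0.05 at the first (adjusted p = 0.19). ORC5 also overlapped, with changes of -0.05 ± 0.08 at the 12th restreaking (adjusted p = 0.565) and -0.05 ± 0.08 at the first (adjusted p = 0.593). The 95% intervals of the change were -0.08 to 0.17 and -0.04 to 0.20 for ORC2, and -0.23 to 0.12 and -0.21 to 0.12 for ORC5. Under quantile normalization ORC5 was lower, at -0.19 (adjusted p = 0.0469) at the 12th restreaking and -0.18 (adjusted p = 0.0449) at the first.

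The 3 genes of Okazaki fragment maturation, which turn the pieces of the lagging strand into 1 chain, were lower in both comparisons. CDC9, the DNA ligase that seals nicks between fragments, read 473, 386 and 388 in the 12th-restreaking cultures, 435, 470.3, 499.8 and 498 in the first-restreaking cultures and 1039.5, 1100.5 and 987 in wild type. It fell 2.46-fold at the 12th restreaking and 2.15-fold at the first (adjusted p-values 4.22e-09 at the 12th restreaking and 8.82e-09 at the first). RAD27, the flap endonuclease, read 459, 394 and 375 at the 12th restreaking and 530.2, 554, 526 and 499 at the first, against 789, 897 and 843 in wild type, and its 3 groups did not overlap. RAD27 changed by -1.02 ± 0.07 at the 12th restreaking (adjusted p = 2.43e-08) and -0.66 ± 0.07 at the first (adjusted p = 9.09e-07). DNA2, a helicase and nuclease that trims long flaps, was lower, with changes of -0.54 at the 12th restreaking and -0.55 at the first (log2; adjusted p-values 3.01e-05 at the 12th restreaking and 1.27e-05 at the first).

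Of the 4 fork genes, 3 were lower and 1 higher in both comparisons. Tof1, Csm3 and Mrc1 form the complex that stabilises stalled forks and relays the replication checkpoint, and Ctf4 links the helicase to polymerase alpha. TOF1 read 145, 141 and 128 in the 12th-restreaking cultures, 138, 144, 137 and 140.3 in the first-restreaking cultures and 259.9, 259.7 and 275 in wild type, a change of -0.87 ± 0.07 at the 12th restreaking (adjusted p = 6.62e-08) and -0.85 ± 0.07 at the first (adjusted p = 3.48e-08). MRC1 read 277, 220.1 and 229 at the 12th restreaking and 315, 279.8, 292 and 298 at the first, against 515, 434 and 416 in wild type, a change of -0.87 ± 0.09 at the 12th restreaking (adjusted p = 1.19e-06) and -0.59 ± 0.09 at the first (adjusted p = 2.64e-05). CTF4 read 429, 402 and 417 on the 12th-restreaking arrays, 461, 471, 447 and 422 on the first-restreaking arrays and 737, 750.5 and 672 on the wild-type arrays, a change of -0.77 ± 0.06 at the 12th restreaking (adjusted p = 5.51e-08) and -0.66 ± 0.06 at the first (adjusted p = 1.17e-07). CSM3, whose product pairs with Tof1, was higher. It read 201, 175 and 198 in the 12th-restreaking cultures, 176, 162, 183 and 183 in the first-restreaking cultures and 115, 127 and 112 in wild type, a change of 0.63 ± 0.08 at the 12th restreaking (adjusted p = 7.69e-06) and 0.52 ± 0.08 at the first (adjusted p = 2.42e-05), and under quantile normalization the first-restreaking change was 0.04 (adjusted p = 0.671).

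The 12th and the first restreaking, which share mating type, were compared directly. The groups differed in the LYS2 and MET17 signals given above as well as in passage, and on the first-restreaking side those differences lay in replicates 3 and 4. The members differed little: 5 were lower and 2 higher at the 12th restreaking, beside 9.07% and 6.83% of all genes, 46 did not pass, and the median log2 difference was -0.03. At an unadjusted p under 0.05 there were 14 of 53 members, beside 1660 of all 5449 genes, so the members did not stand out. The lower genes were POL2 (-0.41 ± 0.07, adjusted p = 0.00271), RAD27 (-0.36 ± 0.07, adjusted p = 0.00626), POL12 (-0.34 ± 0.06, adjusted p = 0.00439), MRC1 (-0.28 ± 0.09, adjusted p = 0.0454) and PRI2 (-0.23 ± 0.06, adjusted p = 0.0188). The higher genes were RFC5 (0.26 ± 0.07, adjusted p = 0.0207) and DPB4 (0.17 ± 0.05, adjusted p = 0.0307). In all 7 genes the arrays of the 12th restreaking lay wholly to 1 side of those of the first. The calls came from these same arrays, so this adds no evidence. PRI1, DPB3, MCM4, CDC7 and SLD3 did not overlap either and were not called. Separation of the arrays was not counted over all genes, so it cannot be read as particular to the members. POL2, POL12, RAD27, PRI2 and MRC1 were already lower than wild type at the first restreaking. RFC5 was the reverse case, at 635 to 710 at the 12th restreaking and 510 to 620 at the first, against 930 to 1003 in wild type.

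The 7 calls were not equally firm. POL2, RAD27 and POL12 passed under each alternative run for this comparison, including the omission of each array. MRC1 lost its call without any 1 of the deletion arrays other than 12th-restreaking replicate 1, with adjusted p-values from 0.0581 (without first-restreaking replicate 2) to 0.188 (without 12th-restreaking replicate 2). PRI2 lost its call without 12th-restreaking replicate 2 (adjusted p = 0.0732) or 3 (0.0882). DPB4 lost it without 12th-restreaking replicate 1, 2 or 3 (adjusted p = 0.104, 0.0873 and 0.0752), or first-restreaking replicate 2 or 3 (0.0782 and 0.0574). RFC5 lost it without 12th-restreaking replicate 1 or 2 (adjusted p = 0.0756 and 0.0738) or first-restreaking replicate 2 (0.0506). CDC9 was past the threshold without 12th-restreaking replicate 1, at -0.28 (adjusted p = 0.0228). With first-restreaking replicates 1 and 2 alone, PRI2 (adjusted p = 0.082), MRC1 (0.0982) and DPB4 (0.0673) lost their calls and MCM6 passed, at -0.21 (adjusted p = 0.0411). With replicates 3 and 4 alone, MRC1 (adjusted p = 0.106) and DPB4 (0.0868) lost theirs and POL30 passed, at -0.36 (adjusted p = 0.0302). With the clone pair as a random block, MRC1 (adjusted p = 0.0668) and DPB4 (0.0512) lost their calls. For the 46 members that did not pass, the 95% intervals of the difference reached from -0.43 to 0.38 at their outermost. POL1 is an example, with an interval of -0.12 to 0.11, and CDC6 had a wider one of -0.11 to 0.38.

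**Figure D3:**
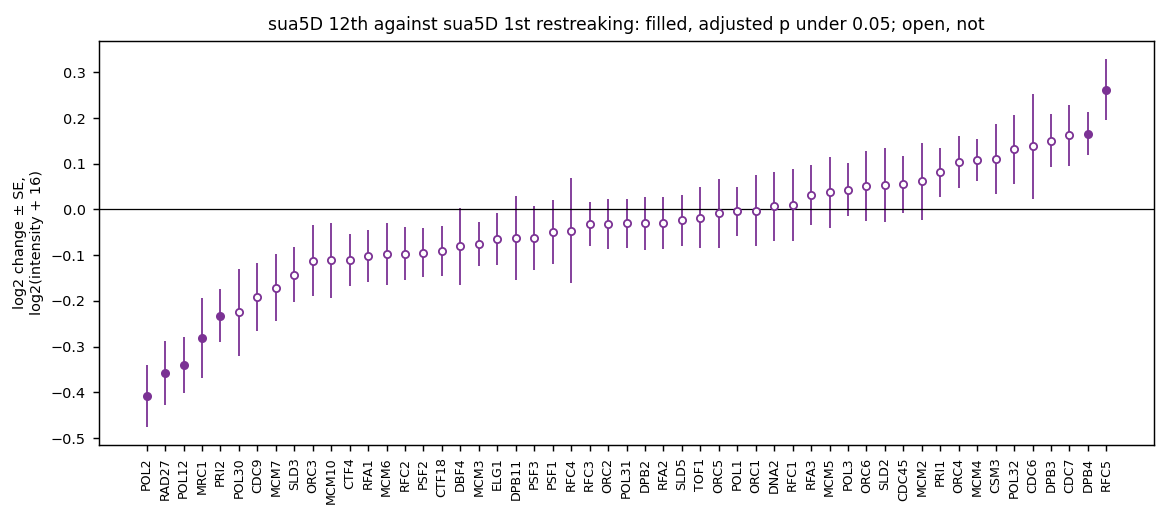
Log2 difference between the 12th and the first restreaking for each of the 53 replication genes (y axis; intensity + 16; error bars, SE), ordered by size. Filled points are the 7 genes with an adjusted p under 0.05. The values run between -0.41 for POL2 and 0.26 for RFC5.

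The number of higher members depended on how the arrays were scaled. Setting array medians equal shifted the median of all genes by -0.11 log2 units in each comparison. Then 40 members were lower in both, with 6 higher at the 12th restreaking and 7 at the first. Of all 5449 genes, 2392 were then lower and 1872 higher at the 12th restreaking, and 2479 and 1946 at the first. Quantile normalization gave 43 lower members in both comparisons, with 5 higher at the 12th restreaking and 4 at the first. Of all genes, 2292 were then lower and 1789 higher at the 12th restreaking, and 2400 and 1806 at the first. As deposited, 2008 of all genes were lower at the 12th restreaking and 2044 at the first. Both scalings thus raised the number called lower over all genes too. PSF2 and SLD5 kept their direction and calls in both comparisons under both scalings. The falls of POL12, CDC6, RFC1, POL30, CDC9 and RFA1 kept their calls too.

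**Figure D4:**
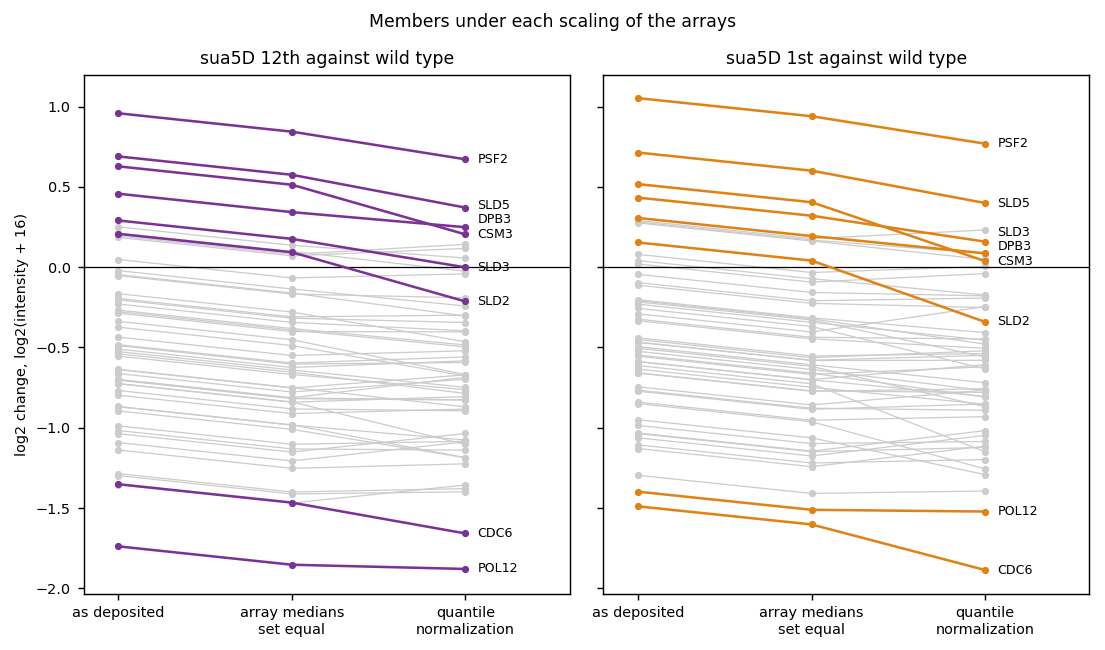
Log2 change against wild type of the 53 replication genes under 3 scalings of the arrays (x axis) at the 12th restreaking (purple, left) and the first (orange, right). Each line is a gene, and coloured lines are the genes named beside them. POL12 and CDC6 stay at the bottom and PSF2 and SLD5 at the top, while SLD2 crosses 0 in both panels.

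Genes that supply or follow replication were read in the same fits, from lists drawn up with earlier results of these data known. Of all genes, 36.9% were lower and 40.9% higher at the 12th restreaking, and 37.5% and 41.5% at the first. Of 16 other replication factors 7 were lower and 7 higher in each comparison, shares near those of all genes. TOP2, topoisomerase II, changed by -1.02 at the 12th restreaking and -0.90 at the first (log2), ABF1, an origin-binding transcription factor, by -1.10 at the 12th restreaking and -0.83 at the first, and SLD7, the partner of Sld3, by 0.77 at the 12th restreaking and 0.74 at the first. Deoxynucleotide supply was lower in 10 of 12 genes at the 12th restreaking and 11 of 12 at the first, with none higher. RNR1, the large subunit of ribonucleotide reductase, read 973, 776 and 779 at the 12th restreaking and 832, 929.5, 946 and 917 at the first, against 2887, 2575 and 2666 in wild type, and changed by -1.67 ± 0.08 at the 12th restreaking (adjusted p = 3.69e-10) and -1.56 ± 0.08 at the first (adjusted p = 2.84e-10). CDC21, thymidylate synthase, changed by -0.81 at the 12th restreaking and -0.80 at the first (log2).

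Chromatin assembly genes were lower in 10 of 12 in both comparisons, with none higher, among them SPT16 (-0.89 at the 12th restreaking and -0.90 at the first) and POB3 (-0.75 at the 12th restreaking and -0.84 at the first), which form the FACT histone chaperone. All 9 histone genes measured were lower, such as HTA2 at -0.75 at the 12th restreaking and -0.83 at the first; the near-identical copies of histone genes may share signal on the array. Of 24 other genes expressed at the G1/S transition, 22 were lower and 1 higher in both comparisons. MCD1, a cohesin subunit, read 151, 150.3 and 141 in the 12th-restreaking cultures, 137, 143, 131 and 133 in the first-restreaking cultures and 664, 623 and 603 in wild type, and changed by -1.98 ± 0.07 at the 12th restreaking (adjusted p = 9.17e-12) and -2.09 ± 0.06 at the first (adjusted p = 2.07e-12). Of 12 transcription factors and cyclins of that transition, 7 were lower and 3 higher in both. CLB6, an S-phase cyclin, changed by -2.66 at the 12th restreaking and -2.34 at the first (log2), and NRM1, a repressor of MBF targets, by -1.53 at the 12th restreaking and -1.27 at the first, while CLN3, the cyclin that acts upstream of SBF and MBF, was higher by 0.30 at the 12th restreaking and 0.67 at the first. Their part in the changes of the replication genes was not tested.

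Other cell cycle and DNA lists were read in the same way. Of 13 G2/M genes, 10 were lower and none higher in both comparisons, such as CDC5, the polo-like kinase (-0.64 at the 12th restreaking and -0.69 at the first), and CLB2, a mitotic cyclin (-0.88 at the 12th restreaking and -0.81 at the first). Of 14 M/G1 genes other than the members, 6 were lower and 4 higher at the 12th restreaking, and 7 were lower and 5 higher at the first, near the shares of all genes. Of 5 translesion and repair polymerase genes, 1 was lower and 2 higher at the 12th restreaking, and 1 was lower and 3 higher at the first. REV1 was the lower gene, at -0.75 at the 12th restreaking and -0.33 at the first, and REV7, a subunit of polymerase zeta, was higher at 0.44 at the 12th restreaking and 0.65 at the first. Of 9 genes for mitochondrial DNA, 3 were lower and 2 higher at the 12th restreaking, and 4 were lower and 2 higher at the first, where the shares lower were again near those of all genes. ABF2, which packages mitochondrial DNA, changed by -0.44 at the 12th restreaking and -0.52 at the first. Under quantile normalization 3 of the other replication factors were higher in each comparison, and the translesion and repair polymerases had 3 lower and 1 higher at the 12th restreaking and 2 lower and 1 higher at the first. Both other scalings gave 5 of the 9 genes for mitochondrial DNA lower at the 12th restreaking and 6 at the first. Quantile normalization left 0 and 1 of them higher. Counts over all genes under these scalings are given above.

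**Figure D5:**
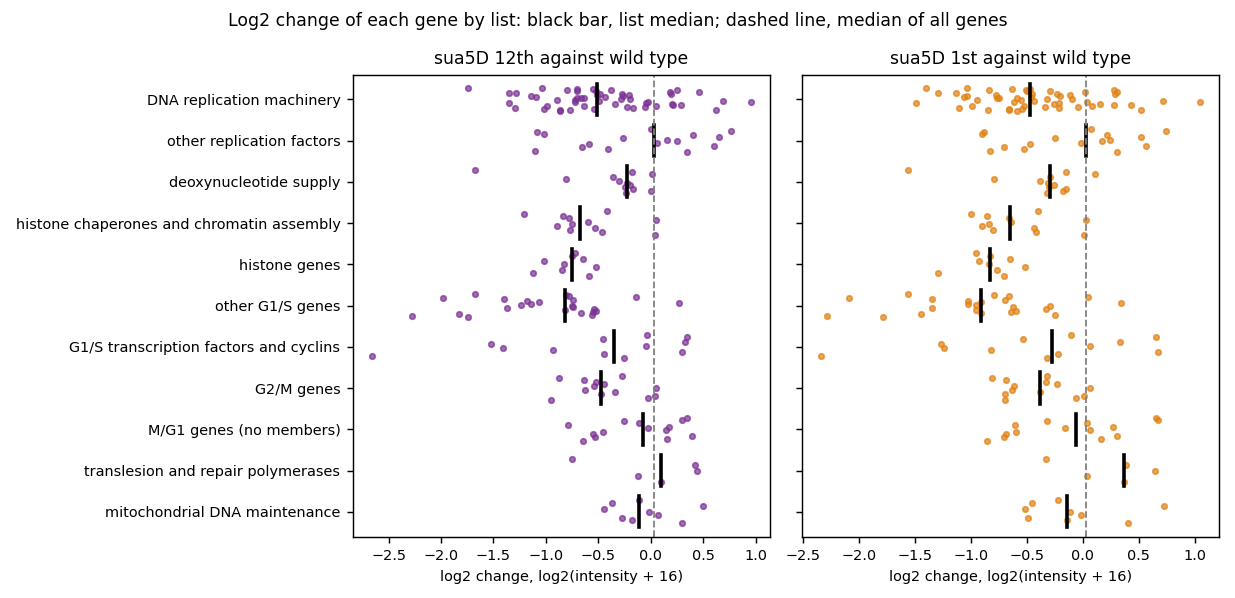
Log2 change against wild type (x axis; intensity + 16) of each gene in the replication machinery and in 10 lists of related genes, at the 12th restreaking (left) and the first (right). Points are genes, black bars list medians, and the dashed line is the median of all genes at 0.03. The bar of the replication machinery stands at -0.51 and -0.47, left of the dashed line.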

How the data were processed

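RNA of 10 yeast cultures was measured on 1 Affymetrix array each. The deposited values are linear intensities, 1 per probe set and array, and the software behind them is not named in the labels. The authors' scaling can be read from the intensities: each array's mean, with 2% of probe sets at each end left out, was about 500.2. Such scaling assumes a like mean signal in all strains. The platform annotation named 5498 S. cerevisiae probe sets through gene identifiers of the R64 table, and the brightest probe set stood for each of 5449 genes. The 95th percentile of 1746 Schizosaccharomyces pombe probe sets gave the background limit.

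Intensities were tested as log2(intensity + 16) with limma 3.58.1 in R 4.3.3: all 10 arrays were fitted together with a mean for each group, eBayes used an intensity trend, and two-sided p-values were adjusted over all genes by Benjamini-Hochberg. The procedure was tested on simulated data. The members and lists were chosen with earlier results of these data known. Every member is accounted for by complex, with array values for SUA5, for the 6 called members with the largest change and for the 2 with the largest change in each complex, in each comparison, and up to 4 genes of each list by adjusted p (other genes of the lists were named only with their lists' counts). SLD5 was added after its values were seen. Arrays with the same replicate number did not deviate together (r between -0.271 and 0.0797), so the main fit did not pair samples by number. With so few arrays, and first-restreaking deviations that follow the clone pairs, this cannot exclude pairing. Alternatives were another pseudocount, a filter on dim genes, other scalings, probe set averages, other variance settings, a replicate block, clone pairs and leaving out each array. P-values measure only the spread between these cultures. No coordinates or sequences are printed, because no genome of a named build was used.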

Additional observations from a re-analysis of the deposited data

Results flagged for a closer look

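Each member's 4 first-restreaking arrays were checked for 1 array far from the other 3, and 3 of 53 members had one, where chance alone gives about 1 in 20. RFC4, a clamp-loader subunit, read 427.7 on replicate 1, against 322 to 330.1 on the others. Without that array the change from wild type was -0.33 (adjusted p = 0.0103), and RFC4 also passed with it under other settings. DPB2, of polymerase epsilon, read 320.8 on replicate 4, against 298.4 to 301.5 on the others. RFA1, the large subunit of replication protein A, read 510.4 on replicate 3, against 492.2 to 492.6 on the others. The fall of DPB2 and RFA1 against wild type kept its call without each array in turn.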

How the results depend on the processing

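Of 53 members, 41 at the 12th restreaking, 39 at the first and 46 between the restreakings stayed on their side of the threshold under all alternatives run and, if called, kept their direction; values not called could change sign, as ORC2 did with array medians set equal (-0.07 at the 12th restreaking and -0.03 at the first). Quantile normalization turned 4 values round: SLD2 to -0.21 at the 12th restreaking and -0.34 at the first, PSF3 at the first to -0.17, and SLD3 at the 12th to -0.0014; the cause was not tested. It left 5 members higher at the 12th restreaking and 4 at the first, beside 1789 and 1806 of all genes. Requiring at least 1.5-fold, a rule added after seeing the data, left 1671 genes and 26 members changed at the 12th restreaking and 1727 genes and 23 members at the first, fewer by construction. Between the restreakings, leaving out each array in turn gave 267 to 921 genes called (79 to 390 higher, 188 to 531 lower) and 3 to 7 members (0 to 2 higher, 3 to 6 lower). The genes called numbered 544 without 12th-restreaking replicate 1, 375 without replicate 2 and 267 without replicate 3, beside 866 with all arrays, and the genes higher numbered 215 without first-restreaking replicate 2. The replicate block left 252 genes and 1 member higher there. Clone pairs as a random block gave 239 genes higher and 1 member higher, and MRC1 and DPB4 lost their calls. First-restreaking replicates 1 and 2 alone gave 362 genes and 1 member higher, and replicates 3 and 4 alone gave 242 genes and 1 member higher. With the replicate block 45, 44 and 5 members were called at the 12th restreaking, at the first and between them. Of all genes 4185, 4196 and 632 were called in that order. SLD2 at the 12th, ORC6 at the first, and PRI2 and DPB4 between the restreakings lost their calls with this block. The numbers showed no sign of pairing samples, but so few arrays cannot exclude it. Precision is limited by 3 or 4 arrays a group. Scaling can shift changes, and not only small ones or those of dim probe sets. Quantile normalization took the first-restreaking change of CSM3 from 0.52 to 0.04. That of DPB3, with a mean intensity of 471 at the first restreaking, went from 0.31 to 0.09.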
